A study of Mus musculus with 12 samples.

Results

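The Tox family holds 4 mouse genes, Tox, Tox2, Tox3 and Tox4, which encode nuclear proteins with a single HMG box. Their probes were taken from 12 single-colour Agilent arrays through the RefSeq accession that each array annotation gives for a probe. The 4 genes are 4 of 19751 genes named in this way, and they have 5 of the 39429 probes: 1 each for Tox, Tox2 and Tox3, and 2 for Tox4. The family was chosen with its values on these arrays known, so its levels and differences are described here without a test, and where members are counted among called genes the count is a description too. Rhox8 carries Tox as an old synonym in the gene table, and its 2 probes were not counted.

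The cells came from the telencephalon of CD-1 mouse embryos. Plasmid for a nuclear EGFP was electroporated into the medial wall at embryonic stage E11.5, together with siRNAs or an expression plasmid, and the EGFP-positive cells were sorted 24 hours later, at E12.5. The 4 groups had 3 replicates each, described as independent by the series: control siRNAs, a first set (set 1) or a second set (set 2) of siRNAs against both Dmrt3 and Dmrta2, and Dmrta2 overexpression. Every group carried the EGFP plasmid, the control siRNAs were the only control, and a group with an empty expression plasmid was not among them. The labels do not name the promoter of the Dmrta2 plasmid, and they do not say how many embryos were pooled. Each of the 3 slides held 1 array of each group, always at the same position, so position and group cannot be told apart. Replicate numbers and slides coincided.

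HMG-box proteins bind DNA in the minor groove and bend it. Tox is best known from the thymus, where it is needed for the development of CD4 T cells and lies downstream of calcineurin and NFAT signalling. It is also expressed in progenitors of the developing cortex. Tox2 is known from natural killer and follicular helper T cells, Tox3 from neurons, where it acts with CREB and its coactivators, and Tox4 as the DNA-binding subunit of the PTW/PP1 phosphatase complex. Dmrt3 and Dmrta2 encode DM-domain transcription factors of the dorsomedial telencephalon.

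RefSeq start-site windows of assembly GRCm38.p6 were matched for 3 of the 4 genes, in 7 windows, and the 250 bases before each start were searched on both strands. Tox had no entry. The DM-domain core ACANTGT was in none of the 7 windows and in 6.47% of 32851 windows of that length. The flanking element GATACA, which can overlap that core by 3 bases, was in 1 window of Tox2 and in 6.19% of all windows. The CREB element TGACGT was found in the Tox4 window, 132 bases before the start, and in 6.47% of all windows. GC boxes (GGGCGG) were found in 6 of the 7 windows, which overlap in part for Tox2, and in 32.7% of all windows. The Tox3 window was 84.4% G and C with 40 CpG, and that of Tox4 64.8% with 21, against medians of 52.4% and 6 over all windows. Those of Tox2 ran from 52.8% with 5 CpG, near these medians, to 78.8% with 35. A match is a description of the letters only. Of the 7 windows, the first of Tox2 is shown as far as the first annotated base of the gene, at chr2:163202877-163203057 on the plus strand, because it lies outside any gene in the table; the capitals mark its GC boxes, of which the last 2 overlap.
Tox2: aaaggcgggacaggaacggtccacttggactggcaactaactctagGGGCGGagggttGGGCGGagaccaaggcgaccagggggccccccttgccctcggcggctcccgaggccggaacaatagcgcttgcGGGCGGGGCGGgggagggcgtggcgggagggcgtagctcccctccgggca

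Arrays differed in overall brightness, with a 75th percentile of the processed signal between 571.5 and 1143, and the spots marked well above background made up 67.1% to 72.2%, by the scanner software's own test. Arrays of a group correlated at 0.979 to 0.994 across genes. All 10 radial glia markers were well above background on all 12 arrays. The same held for all 10 genes of postmitotic neurons and all 7 of Cajal-Retzius neurons, so detection does not set radial glia apart. Levels below are percentages of the array's 75th percentile, and differences are on the log2 scale with limma's moderated standard error (SE). They are bulk values of sorted cells, in which fewer cells of a type and less RNA per cell cannot be told apart.

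The targeted genes check the labels. The Dmrt3 level was 104%, 125% and 160% with control siRNAs, 45.8%, 91.3% and 60.6% with set 1, and 57.1%, 97.3% and 72.3% with set 2. All 6 siRNA arrays lay below all controls, and the log2 difference of the siRNA average was -0.90 ± 0.26 (SE). In limma with Benjamini-Hochberg adjustment this had an adjusted p of 0.162, or of 0.0280 once slides were fitted as a block. Dmrta2 differed by -0.46 ± 0.14 in the siRNA average (adjusted p = 0.207, limma), and 4 of the 6 siRNA arrays lay below all controls. On the 3 arrays labelled Dmrta2 overexpression the Dmrta2 level was 430%, 452% and 382%, below the control values of 659%, 516% and 611% (adjusted p = 0.595, limma). The Dmrta2 probe thus went against that label, and whether it lies within the sequence that the plasmid carries is not known here. These arrays are therefore named by their label throughout.

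Tox was high on every array with Dmrt3 and Dmrta2 siRNAs and low on all others. The level was 7.68%, 7.51% and 2.83% with control siRNAs, and 58.0%, 38.3% and 48.4% with set 1. With set 2 it was 45.4%, 46.7% and 36.7%, and on the arrays labelled Dmrta2 overexpression it was 10.4%, 4.26% and 4.34%. All 6 siRNA arrays lay above all controls, as they did for 3.29% of the 15369 genes compared. They also lay above all arrays labelled overexpression, as they did for 3.29% of genes. Controls and arrays labelled overexpression overlapped.

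The geometric mean of Tox was 45.04% over the 6 siRNA arrays against 5.47% over the 3 controls, a log2 difference of 3.04 ± 0.37 (SE), or 8.24-fold. With another background correction (normexp) it was 1.91 ± 0.18. In the first setting this was the third largest rise among the 15369 genes compared. Set 1 alone gave 3.12 ± 0.42 and set 2 alone 2.97 ± 0.42, and the sets differed from each other by -0.16 ± 0.42. Both comparisons used the same 3 control arrays. Set against the same controls, the arrays labelled Dmrta2 overexpression differed by 0.08 ± 0.42, and set against the siRNA arrays by -2.97 ± 0.37, which is 12.8% of the siRNA level.

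**Figure D1:**
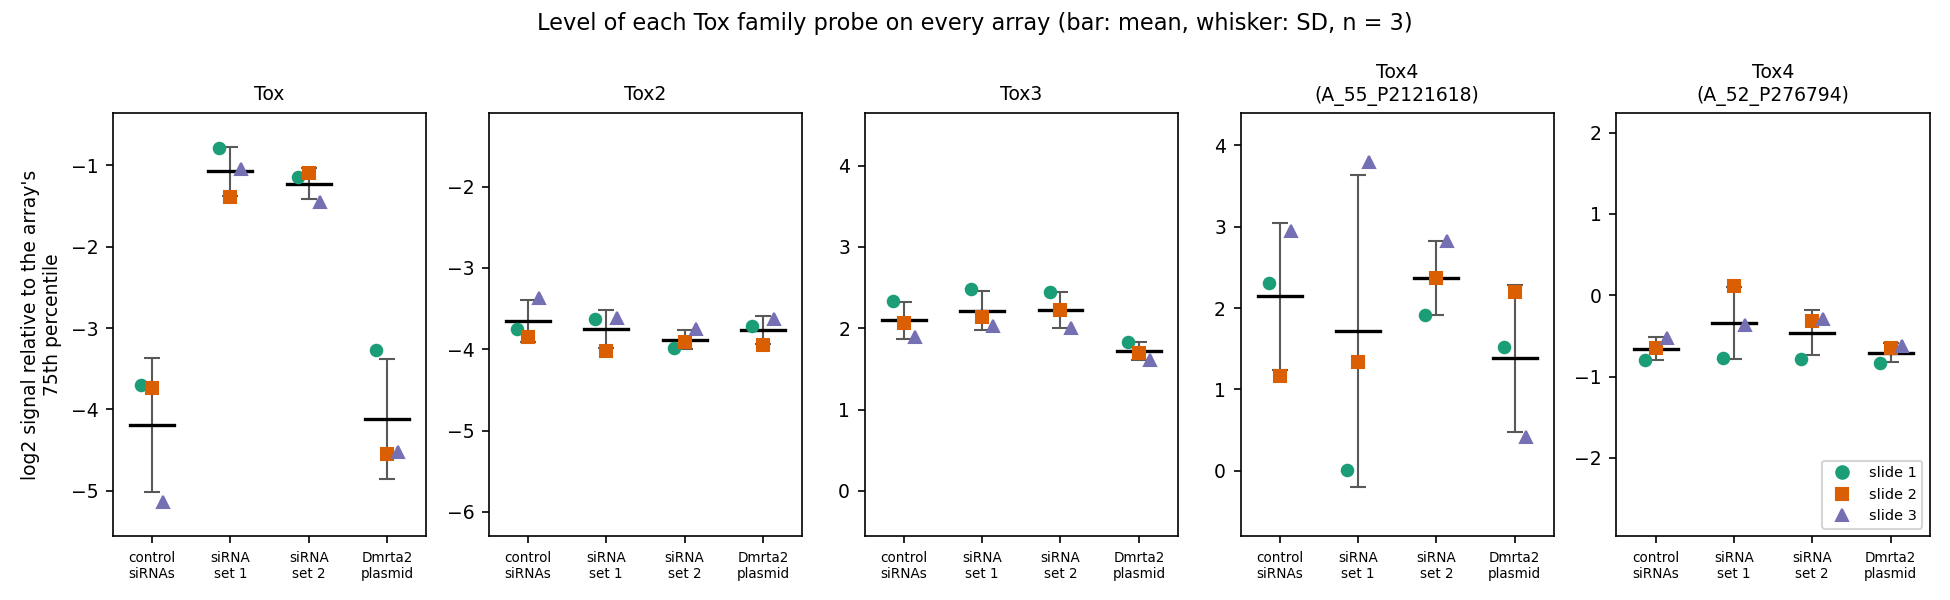
Level of each Tox family probe on every array, as log2 of the signal relative to the array's 75th percentile (y axis, 5.2 log2 units high in every panel), by group; points are arrays, bars group means and whiskers SD (n = 3); "Dmrta2 plasmid" stands for the arrays labelled Dmrta2 overexpression. Tox separates the 6 siRNA arrays from the 6 others, Tox3 is lowest on the arrays labelled overexpression, Tox2 is level, and the A_55_P2121618 probe of Tox4 spreads 13.8-fold within set 1.

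All 5 probes of the family were well above background on all 12 arrays, but the Tox signal was dim outside the siRNA groups. On the controls it was 4.94, 7.13 and 2.28 times the lowest signal that the software accepted on the same array, and on the siRNA arrays 35.7 to 49.1 times. For Tox the controls ranged 2.71-fold and the arrays labelled overexpression 2.43-fold, while the 6 siRNA arrays ranged 1.58-fold. Tox2, at 4.77 to 7.81 times that lowest signal on the 12 arrays, ranged 1.40-fold in controls and 1.58-fold over all 12 arrays. For Tox, the third control replicate was the lowest of all 12 arrays.

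Within slides, where each comparison rests on arrays hybridised together, the siRNA average lay above the control of its own slide by 2.74, 2.49 and 3.90 (log2). Set 1 was above by 2.92, 2.35 and 4.10, and set 2 by 2.56, 2.64 and 3.70. The arrays labelled overexpression had no common direction for Tox, with differences of 0.43, -0.82 and 0.62. The rise in siRNA cells was thus seen with each set on each slide, and its size was largest on slide 3, which holds the dimmest control.

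**Figure D2:**
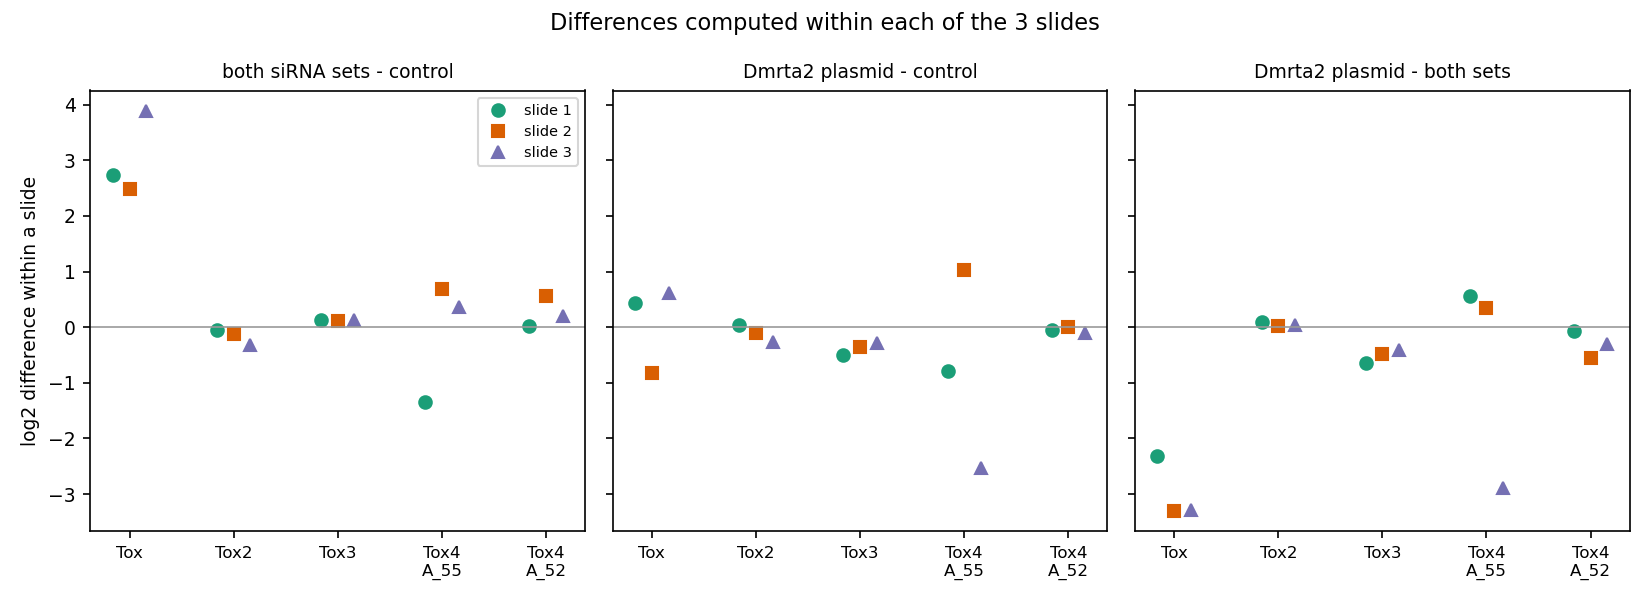
Log2 differences computed within each of the 3 slides (y axis) for the 5 probes (x axis; A_55 and A_52 are the Tox4 probes A_55_P2121618 and A_52_P276794), with 1 point per slide. Tox lies between 2.49 and 3.90 in the siRNA average on every slide, Tox3 is negative on every slide for arrays labelled Dmrta2 overexpression, and A_55_P2121618 changes sign between slides.

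Tox3 had the other pattern in the family. It read 506%, 419% and 371% with control siRNAs, 561%, 438% and 407% with set 1, and 547%, 467% and 399.5% with set 2. On the arrays labelled Dmrta2 overexpression it read 356%, 325% and 306%. All 3 of these values were below all controls and below all 6 siRNA arrays, whereas siRNA and control arrays overlapped.

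The log2 difference of Tox3 between arrays labelled overexpression and controls was -0.38 ± 0.17 (SE), or 76.7% of the control level, and within slides it was -0.51, -0.36 and -0.28. Of 15369 genes, 1.70% had all 3 of these arrays below all controls. Set against the siRNA average the difference was -0.51 ± 0.15, with -0.64, -0.48 and -0.40 within slides, and 3.29% of genes had all 3 arrays below all 6. With siRNAs, Tox3 differed from control by 0.12 ± 0.15, and by 0.13, 0.11 and 0.12 within slides.

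Tox2 stayed close to the same dim level in every group. Values were 7.41%, 6.94% and 9.70% with control siRNAs, 8.10%, 6.14% and 8.18% with set 1, 6.34%, 6.62% and 7.44% with set 2, and 7.64%, 6.46% and 8.07% on arrays labelled overexpression. All groups overlapped. The log2 differences from control were -0.16 ± 0.14 for the siRNA average and -0.11 ± 0.17 for arrays labelled overexpression.

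The 2 probes of Tox4 disagreed. The brighter, A_55_P2121618, read 497%, 225% and 773% with control siRNAs, 101%, 254% and 1391% with set 1, 377%, 518% and 705% with set 2, and 288%, 460% and 133% on arrays labelled overexpression. Its groups overlapped, and its spread within groups, an SD of 1.17 (log2), was larger than that of 98.9% of genes. The median gene had 0.243. The other probe, A_52_P276794, read 57.6%, 63.6% and 69.7% with control siRNAs, 58.5%, 108% and 77.7% with set 1, 58.2%, 80.5% and 82.0% with set 2, and 56.0%, 63.8% and 64.7% on arrays labelled overexpression.

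The siRNA average of Tox4 differed from control by -0.10 ± 0.73 with the first probe and by 0.26 ± 0.19 with the second, for which 4 of 6 siRNA arrays were above all controls. Arrays labelled overexpression differed by -0.76 ± 0.85 and by -0.05 ± 0.22. Both probes carry the same accession, and over the 12 arrays their log2 levels correlated at r = 0.284. A statement on Tox4 therefore depends on the probe.

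**Figure D3:**
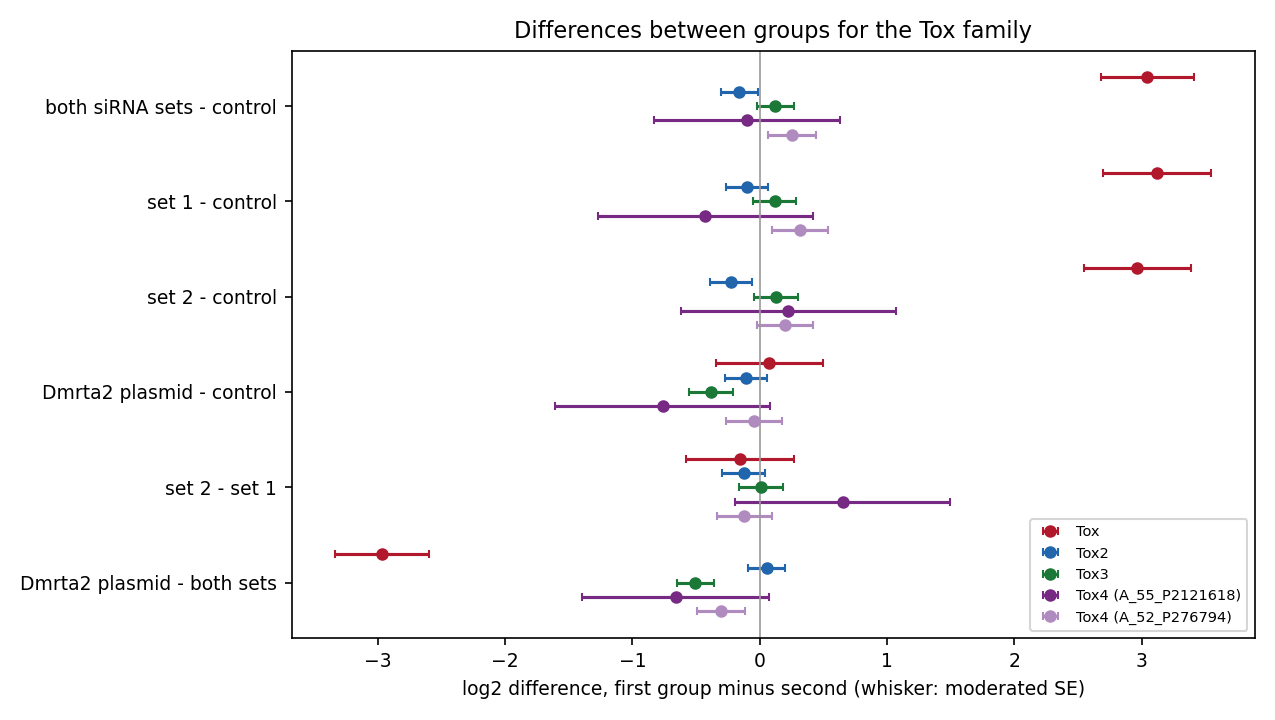
Log2 differences (x axis, first group minus second; whiskers are the moderated SE) for the 5 probes in the 6 comparisons (y axis). Tox stands at 2.97 to 3.12 in the siRNA comparisons with control and at -2.97 for arrays labelled Dmrta2 overexpression against both sets; the Tox3 point is at -0.38 and -0.51 in the comparisons of arrays labelled overexpression.

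Across all genes, 0.703% were past an adjusted p of 0.05 in the siRNA average (108 of 15369), 0.215% with set 1 and 0.943% with set 2 (limma with Benjamini-Hochberg adjustment). Of the 4 family members, Tox alone was among them in each, though not in every fit of set 1 or of set 2 that left out 1 array. For set 1 it missed the threshold when the first control, any set 1 array or the third set 2 array was left out. For set 2 it missed the threshold when any set 2 array was left out. Nothing is read from these calls, since the values that chose the family also gave them. No member passed between arrays labelled Dmrta2 overexpression and controls, where 0.280% of genes did, or between the sets, where 0.0781% did. Between arrays labelled overexpression and both sets, where 2.15% of genes passed, Tox was among the lower ones. With slides as a block Tox3 was among them too, and nothing is read from that either.

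The list of relatives held 36 genes (Sox, Tcf/Lef, Hmgb and others), of which 34 were compared. None of them was past the threshold against control in limma (6 had an unadjusted p under 0.05 in the siRNA average and 2 on arrays labelled overexpression), and the median log2 difference of the siRNA average was -0.11, against -0.0031 for all genes, with 25 of 34 below 0. With slides as a block, Sox8 was lower in the siRNA average (-0.93 ± 0.22, adjusted p = 0.0366) and Tfam higher (0.53 ± 0.12, adjusted p = 0.0336), and each passed in 1 of the sets, Sox8 in set 1 (0.0326) and Tfam in set 2 (0.0318). Arrays labelled overexpression had a median of -0.012. Between arrays labelled overexpression and both siRNA sets, Sox8, a group E Sox factor, was higher by 0.97 ± 0.22 (SE; adjusted p = 0.0491, limma) and Tfam, the mitochondrial transcription factor, lower by 0.61 ± 0.12 (adjusted p = 0.0325). The other 32 did not pass, and with slides as a block Sox1 was also higher (0.75 ± 0.20, adjusted p = 0.0457). Leaving out 1 array, Sox8 passed in 1 of 12 fits, with adjusted p up to 0.200, and Tfam in 3 of 12, with up to 0.164.

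Calcineurin and NFAT act upstream of Tox in T cells. Of 11 such genes, 0 passed in the siRNA average and 0 on arrays labelled overexpression against control (limma; 2 and 1 had an unadjusted p under 0.05). With set 1, Nfatc3, an NFAT transcription factor, was lower by 0.85 ± 0.14 (SE; adjusted p = 0.0496, limma). With set 2, Rcan2, a regulator that binds and inhibits calcineurin, was lower by 0.93 ± 0.16 (adjusted p = 0.0320). The sets differed in Rcan2 by -1.18 ± 0.16 (adjusted p = 0.0293), and not past the threshold in Nfatc3 (0.62 ± 0.14, adjusted p = 0.143). Rcan2 was higher on arrays labelled overexpression than in both siRNA sets by 1.07 ± 0.135 (adjusted p = 0.00302), and this held in all 12 fits that left out 1 array. Nfatc1 was higher there too under the block, by 1.34 ± 0.51 (adjusted p = 0.0273, against 0.276 without). Nfatc3 passed in 1 of those 12 fits for set 1 and Rcan2 in 4 of 12 for set 2, with adjusted p up to 0.191 and 0.112. The difference between the sets in Rcan2 passed in 2 of 12, with adjusted p up to 0.131. For Tox the sets differed by -0.16 ± 0.42, as given above.

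Genes whose proteins work with Tox or another member gave no call in the 6 comparisons. This covers 4 genes of the PTW/PP1 complex, 10 CREB factors and coactivators, and 10 genes of the HBO1 acetyltransferase complexes, which are bound by Tox in T cells (limma). Ppp1r10 of the PTW/PP1 complex was not among the genes named on the array. In the siRNA average 1 gene of each list had an unadjusted p under 0.05. There, Wdr82, a subunit of the complex that holds Tox4, differed by 0.27 ± 0.17 (adjusted p = 0.601). Cited1, a coactivator that binds Tox3, differed by -0.19 ± 0.13 (adjusted p = 0.628), and Kat7, the HBO1 enzyme, by 0.21 ± 0.09 (adjusted p = 0.418).

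**Figure D4:**
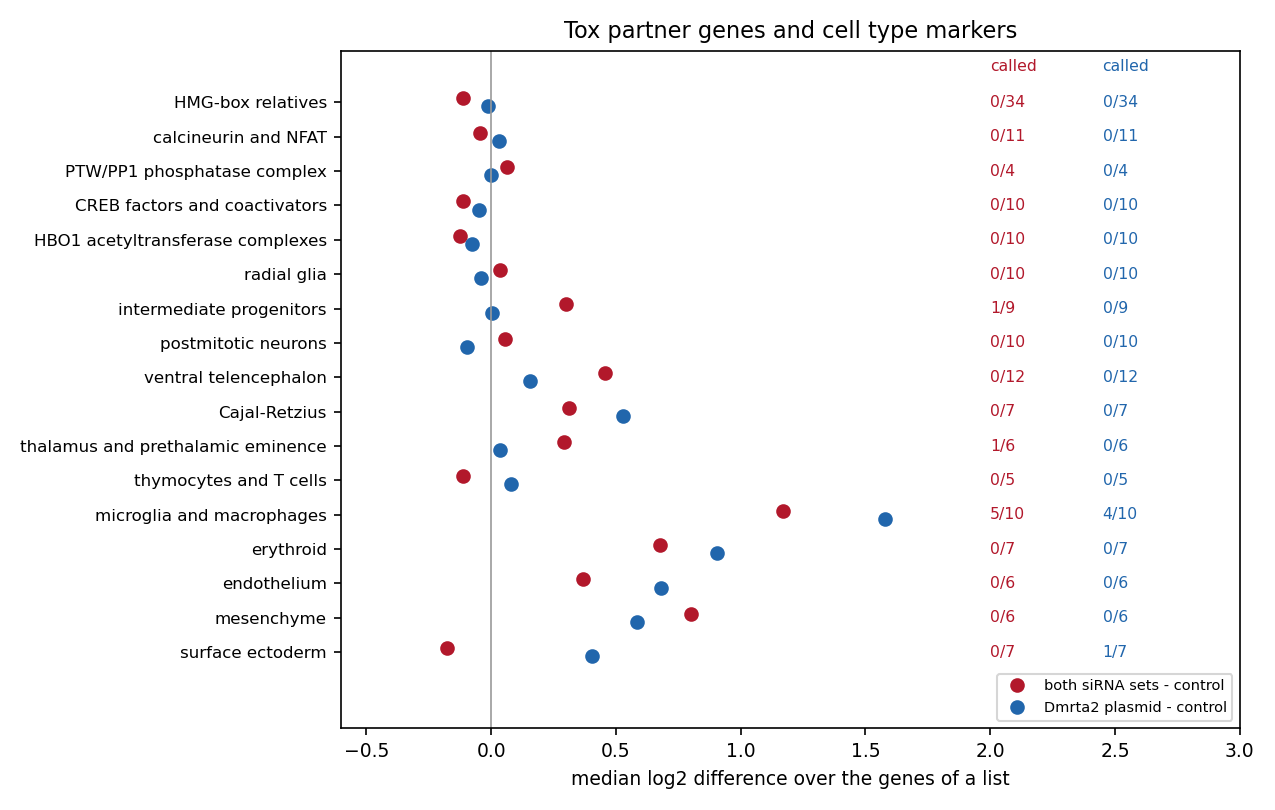
Median log2 difference over the compared genes of each list (x axis) for both siRNA sets against control (red) and arrays labelled Dmrta2 overexpression against control (blue), with the number of genes past an adjusted p of 0.05 over the number compared at the right. Lists of Tox partner genes lie near 0 with no gene past the threshold, and the microglia and macrophage list has the highest medians, 1.17 and 1.58. The red counts include Neurod4 and Olig3 and the blue counts Krt8. These entered the comparison only through the brighter group, and their calls are not used. The ventral telencephalon medians include Dlx1, Gad1 and Isl1, which were well above background on siRNA arrays only.

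Markers of cell types were set beside Tox. Of 10 thymocyte and T cell genes, Cd3d, Cd3g, Rag1, Rag2 and Ptcra were not well above background on any array. The other 5 were compared, none passed in any comparison (limma, and 0 had an unadjusted p under 0.05), and their median difference was -0.11 in the siRNA average. Summed over the 4 of them measured on all 12 arrays, the level was 386% to 667% of the 75th percentile in controls, 355% to 676% with set 1, 482% to 646% with set 2 and 432% to 647% on arrays labelled overexpression.

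Some microglia and macrophage markers were higher than in controls with siRNAs and also on the arrays labelled overexpression. These comparisons shared the same 3 control arrays, so they are not independent of each other. Between arrays labelled overexpression and both siRNA sets, where no control array enters, 0 of 10 genes passed and 2 had an unadjusted p under 0.05 (limma). The list's median difference there was 0.24. In the siRNA average 5 of 10 compared genes were higher, among them Cx3cr1, the fractalkine receptor, by 1.20 ± 0.18 (SE; adjusted p = 0.0234, limma) and Tyrobp, a signalling adaptor, by 1.53 ± 0.22 (adjusted p = 0.0203). The others were Aif1, C1qc and C1qa, the last well above background on 1 of 3 controls. In the fits that left out 1 array, Cx3cr1 passed in 7 of 12, Tyrobp in 8, Aif1 in 2 and C1qa and C1qc in 1 each. On the arrays labelled overexpression, 4 of 10 passed (Aif1, Cx3cr1, Tyrobp and C1qc), and without 1 array they passed in 10, 9, 8 and 2 of 12 fits. Fcer1g also passed in the siRNA average once slides were a block (adjusted p = 0.0475). With set 2, 6 passed, joined under the block by C1qb (0.0444) and Fcer1g (0.0376), and with set 1 none did, where 7 had an unadjusted p under 0.05 (limma). The list's median difference was 0.69 with set 1, 1.64 with set 2 and 1.58 on arrays labelled overexpression, where the Tox differences were 3.12, 2.97 and 0.08. Its summed level ranged from 242% to 606% in controls, 226% to 579% with set 1, 348% to 639% with set 2 and 344% to 643% on arrays labelled overexpression.

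Of 7 compared erythroid, 6 endothelial and 6 mesenchymal genes, none passed in any comparison (limma), and 2, 0 and 2 had an unadjusted p under 0.05 in the siRNA average. Their medians in the siRNA average were 0.68, 0.37 and 0.80, and on arrays labelled overexpression 0.91, 0.68 and 0.58. The mesenchymal sum ran from 102% to 148% in controls and from 195% to 719.9% with set 1, and the erythroid sum reached 1476% on 1 array of set 1. Tek of endothelium was not well above background on any array. The part of these cells in the Tox values was not tested.

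Among markers of neural cells, the radial glia list had no gene past the threshold against control (limma; 3 had an unadjusted p under 0.05 in the siRNA average). Its median was 0.03 there. With slides as a block, Pax6 (1.06 ± 0.27, adjusted p = 0.0376) and Slc1a3 (0.82 ± 0.175, adjusted p = 0.0364) were higher in the siRNA average. Between arrays labelled overexpression and both siRNA sets the list had 3 of 10 genes lower: Pax6, a regulator of cortical progenitors, by 1.52 ± 0.27 (SE; adjusted p = 0.0173), Slc1a3 by 0.81 ± 0.175 (adjusted p = 0.0433) and Vim by 0.58 ± 0.11 (adjusted p = 0.0247). Leaving out 1 array, they passed in 9, 3 and 7 of 12 fits, with adjusted p up to 0.0797, 0.212 and 0.130.

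Neurod4, a basic helix-loop-helix factor of differentiating neurons, stood in the siRNA average at a level at least 2.36-fold that of controls. Olig3, a factor of the dorsal midline and thalamus, stood at a level at least 5.20-fold that of controls. Both were well above background on all 6 siRNA arrays, on only 1 of 3 controls and on 1 of 3 arrays labelled overexpression. They entered the comparison only through the siRNA arrays, so their calls are not used (adjusted p = 0.0308 and 0.0334, limma). Leaving out 1 array, they passed in 4 and 3 of 12 fits, with adjusted p up to 0.132 and 0.158. The other 8 intermediate progenitor genes and the other 5 thalamic genes compared did not pass, nor did any of 10 genes of postmitotic neurons or 12 of the ventral telencephalon, of which 0 and 6 had an unadjusted p under 0.05 (limma). With slides as a block, Isl1 passed in the siRNA average by 1.16 ± 0.24 (adjusted p = 0.0366), and Isl1 and Olig2 passed with set 1 (0.0365 and 0.0486). Isl1 was also lower on arrays labelled overexpression than in both sets with the block (0.0417). Isl1 was well above background on 4 siRNA arrays and on no other array. It entered the comparisons only through these arrays, so its calls are not used. Dlx1 and Gad1 of the ventral list were likewise well above background on siRNA arrays only. Ebf2, of Cajal-Retzius neurons, was lower with set 2 by 1.16 ± 0.20 (adjusted p = 0.0323) and passed in 4 of 12 fits, with adjusted p up to 0.116. Lhx5 of the same list and Ebf2 were higher on arrays labelled overexpression than in both siRNA sets, by 1.11 ± 0.23 (adjusted p = 0.0366) and 1.39 ± 0.175 (adjusted p = 0.00299), and passed in 5 and 12 of 12 fits, with adjusted p up to 0.144 and 0.0254. With slides as a block Lhx5 did not pass (0.0514), and Ebf2 was also lower in the siRNA average (-0.79 ± 0.175, adjusted p = 0.0378). Of surface ectoderm, Krt8 was well above background on the 3 arrays labelled overexpression and on no other, at least 3.57-fold higher than in controls. It entered the comparison only through these 3 arrays, so its call is not used. Krt18 was higher there than in both siRNA sets by 1.57 ± 0.25 (adjusted p = 0.0106). The Krt18 call held in 10 of 12 fits, with adjusted p up to 0.0673. Grhl2 of the same list also passed there under the block (1.23 ± 0.29, adjusted p = 0.0353). It was well above background on the 3 arrays labelled overexpression, 1 control and 1 siRNA array. It met the filter only through the arrays labelled overexpression, so its call is not used either.

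The genes most like Tox were found by Pearson correlation over the 12 arrays, among 13753 genes well above background on all of them. Because Tox falls into 6 high and 6 low arrays, a high value mostly says that a gene has the same split. The 8 highest were Ccdc90b and Fam91a1 (r = 0.980 each), Chmp2b, an ESCRT-III subunit (0.972), Gldc, the glycine decarboxylase of mitochondria (0.968), Ndufa4, a subunit of the respiratory chain (0.968), Abhd14b (0.966), Slc1a3, the glutamate transporter of radial glia (0.965), and Cd164, a sialomucin (0.965). Their log2 differences in the siRNA average ran from 0.63 for Cd164 to 1.11 for Abhd14b, below the 3.04 of Tox. On arrays labelled overexpression they lay between -0.09 for Fam91a1 and 0.13 for Abhd14b.

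The lowest correlations with Tox were those of Tpd52 (-0.961), Slc30a1, a zinc exporter (-0.940), Eva1a (-0.929) and Atp5a1, a subunit of the ATP synthase (-0.924). Within groups, after each group's mean was removed, the 8 genes correlated with Tox at 0.668 (Gldc) to 0.903 (Ccdc90b) and the 4 at -0.386 (Slc30a1) to -0.562 (Atp5a1); they were chosen on the same arrays. On the third control array, where Tox was lowest, all 8 of the most correlated genes lay below their control mean, by 0.43 (log2) or less. On the first array labelled overexpression, where Tox was highest in its group, all 8 were also at their group's highest value. With Spearman's rho, 3 of the 8 and 0 of the 4 genes stayed in the top lists, and with slide means removed 4 and 2 did.

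**Figure D5:**
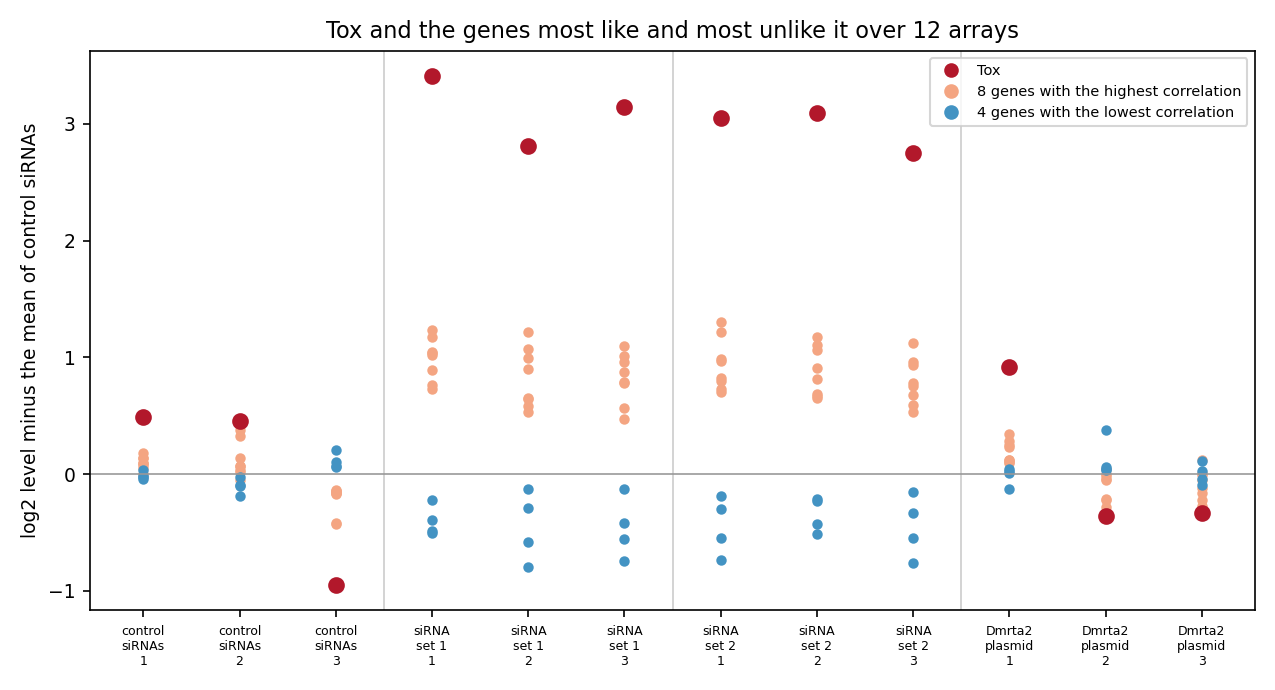
Log2 level of Tox and of the 8 genes with the highest and the 4 with the lowest correlation with it, minus each gene's mean over the control arrays (y axis), on the 12 arrays (x axis). On the 6 siRNA arrays Tox lies 2.75 to 3.41 above the control mean, the 8 genes lie above it and the 4 below it.

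For the other members the likeness was weaker. The genes nearest to them differed from control in the siRNA average by -0.14 (Krtap5-4) to 0.16 (Atoh7). Tox3 was nearest to Cdkn2aip (r = 0.922), Etl4 (0.919) and Gpatch8 (0.901). On arrays labelled overexpression these differed from control by -0.23 ± 0.115, -0.30 ± 0.13 and -0.05 ± 0.11 (SE). Tox2 was nearest to Krtap5-4 (0.889), Slc5a9 (0.871) and Zbtb9 (0.860), and the brighter Tox4 probe to Atoh7 (0.880), Chchd5 (0.846) and Copg1 (0.836). Tox and Tox3 correlated with each other at 0.670 over the 12 arrays, with all arrays sharing slides, and at 0.639 within groups. Tox and Tox2 were at -0.349.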

How the data were processed

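Members and gene lists were chosen with earlier results of these data known. The deposited scanner files hold spot intensity; the processed signal was background-subtracted and detrended per the file headers, by Agilent Feature Extraction 10.5.1.1 per the submitters' processing notes. Control spots and outlier spots (136 to 218 of 43020 an array) were left out, and no spot was saturated. Log2 signals were scaled to the array's 75th percentile and spots of a probe were averaged. Probes were named through RefSeq accessions (26055 of 39429); the array annotation used build mm9, so no probe coordinates are given. Genes needed a probe well above background on at least 3 of 12 arrays (15369 genes, 74 of them missing an array), and the probe with the highest mean represented a gene. All 12 arrays were fitted with limma 3.58.1 in R 4.3.3 (lmFit, eBayes, 8 residual degrees of freedom, two-sided, Benjamini-Hochberg over all genes, threshold 0.05). The fit was tested on simulated data. The number of arrays limits the precision.

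A bound ("at least") sets the brighter group's mean against a floor: on each dim array, the probe's own signal or the lowest signal well above background, whichever was higher. The rule for named genes took the family, Dmrt3, Dmrta2, the 8 most and 4 least correlated genes for Tox, the 3 most correlated for the others, every list gene past the threshold and up to 3 genes of other lists. The authors' deposited log2 values, of unstated scale, matched the scaled scanner values centred per probe (r at least 0.9998 on every array, column medians -0.131 to 0.0958, same direction) and served as an alternative. The other alternatives were the slide as a block, leaving out each array, quantile normalization, normexp with an offset of 50, other filters on dim probes, and the mean over probes.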

Additional observations from a re-analysis of the deposited data

How the results depend on the processing

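No alternative turned the direction of a Tox difference that involves siRNA arrays, and 2 of 19 turned that between arrays labelled overexpression and control (without the first overexpression array, -0.35, and without the third control, -0.40). With normexp background correction the Tox difference was smaller: 1.91 in the siRNA average, 1.97 for set 1, 1.85 for set 2 and -1.82 for arrays labelled overexpression against both sets; normexp was run on the median spot signal, with outlying local backgrounds set to the array's median. Leaving out 1 array, Tox ranged over 2.57 to 3.29, 2.65 to 3.37, 2.49 to 3.21, -0.40 to 0.32 (arrays labelled overexpression against control), -0.31 to -0.01 (set 2 against set 1) and -3.39 to -2.75. Tox4 changed sign in 4 of 19 alternatives of the siRNA average, 1 of set 1, 2 of set 2 and 1 between sets.

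Same-numbered arrays correlated at 0.0196 to 0.599 in their deviations from group means (18 pairs), and 11 of 12 arrays correlated best with one of their own number. The median was 0.33 for same-numbered pairs and -0.16 for the others. Deviations from a group mean sum to 0 over its arrays, so these medians are tied to each other. For Tox3 between arrays labelled overexpression and controls, the SE was 0.17 in the main fit and 0.085 with the slide as a block. By the rule used, the number is taken as the slide, not as a pairing, since not every same-numbered pair was over 0.1. The main fit left it out, although each slide held 1 array of each group and could serve as a block. With it as a replicate block, 234 genes passed in the siRNA average (104 of them shared with 108 without it), 115 with set 1, 362 with set 2, 37 between sets and 530 between arrays labelled overexpression and both sets. Counts fell with normexp to 38 (siRNA average), 56 (set 2) and 24 (arrays labelled overexpression against control), and without a filter to 37, 26 and, between sets, 0, where 1499 genes had an unadjusted p under 0.05 in limma with the filter. Asking for 12 arrays above background left 26 on arrays labelled overexpression. The cause was not tested. Leaving out 1 array, counts ranged over 17 to 88 (siRNA average), 4 to 84 (set 1), 10 to 145 (set 2), 19 to 55 (arrays labelled overexpression), 0 to 12 (between sets) and 106 to 329 (arrays labelled overexpression against both sets).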
